A study of Mus musculus with 20 samples.

Results

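The genes that make, sense and move cholesterol were followed in visceral fat of 20 mice, measured on whole-genome Affymetrix arrays. The set had 30 listed members, of which 20 encode enzymes of cholesterol synthesis, 4 encode proteins that sense sterols and 6 encode proteins of transport and storage. Each gene was read from its probe set annotated to that symbol alone, and where there were several, from the brightest over the 20 arrays. In this way 28 of the 30 members were measured, all 28 passed the filter on dim values, and they were tested among 19802 probe sets of the 45101 on the array. Acat2 and Soat1 were not measured here. The rule that picked the probe sets used gene symbols and brightness, and no measured difference. The members themselves were listed with earlier results of these data known, so their counts beside all probe sets are a description.

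The mice were female C57BL/6J with no transgene, and each of the 4 groups held 5 mice with 1 array per mouse. Control mice received a diet with 10% fat and HF mice one with 58% fat, from 5 weeks of age and for 12 weeks before mating. The paper gives fat as a share of energy, and states that HF feeding went on through gestation. The diets also differed in carbohydrate, which was corn starch in the control and sucrose in the HF diet. Control pregnant and HF pregnant mice were taken at day E18.5 of gestation, shortly before birth. Control non pregnant and HF non pregnant mice carry the same age label of E18.5, and how long they stayed on the diet is not given in the sources used here. The comparisons ask what the diet and late pregnancy, alone and together, do to fat tissue.

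Cells make cholesterol from acetyl-CoA through mevalonate and squalene in a long chain of enzymes, most of them bound to the endoplasmic reticulum. When membranes there are poor in sterol, the transporter protein Scap carries the transcription factor SREBP2, encoded by Srebf2, to the Golgi, where it is cut and freed to switch on the genes of the chain. When sterol is plentiful, the proteins of Insig1 and Insig2 hold Scap back and the genes are turned down. Fat tissue is a large store of free cholesterol, much of it at the surface of lipid droplets, and takes up most of it from the blood.

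The arrays were alike in overall brightness, with a median intensity of 60.7 to 64.7 and 17606 to 18797 probe sets above 100. All 6 measured adipocyte markers of 8 listed, such as Adipoq and Fabp4, were above 100 on every array, and the group means of their log2 intensity were 12.26 on the control and 12.06 on the HF diet without pregnancy, and 12.14 and 11.99 at E18.5. Pancreatic acinar genes stood out on 2 arrays, control pregnant mouse 2 with a mean log2 of 12.47 and control non pregnant mouse 4 with 12.16, against at most 8.48 on the others. Liver genes stood out on the arrays of HF non pregnant mice 1 and 2, with 10.57 and 8.94 against at most 7.42, and intestinal epithelial genes on that of control pregnant mouse 2, with 8.196 against at most 6.496. In whole tissue, fewer cells of a type and less RNA per cell cannot be told apart.

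Most synthesis enzymes had lower values on the HF diet, in pregnant and in non pregnant mice. At E18.5, 16 of the 19 enzymes tested had a lower mean with the HF diet, where 40% of all probe sets did, and the median log2 difference was -0.87 against 0.05 over all probe sets tested. The other 3 were Hmgcs1, Lbr and Ggps1, of which Ggps1 at 0.02 turned to -0.01 when arrays were centred on their medians. Tm7sf2 and Nsdhl fell past the threshold, which was an adjusted p under 0.05 in limma, and no member rose. That made 2 of 28 members, against 0.177% of all probe sets called lower and 0.0151% called higher. For 13 of the 19 enzymes all 5 pregnant mice on the HF diet lay below all 5 on the control diet, where 1.95% of all probe sets did so. An unadjusted p under 0.05 was reached by 20 of 28 members, against 12.8% of all probe sets. With the array weights that limma estimates from the spread, 13 members passed after adjustment, 12 lower and Abcg1 higher, in a fit that called 6.89% of all probe sets. Those weights ran from 0.233 to 11.3, and were highest for HF non pregnant mouse 3 (11.3, against at most 0.795 in its group) and for control non pregnant mouse 4 (4.45), whose array held the pancreatic signal.

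In the non pregnant mice 16 of the 19 enzymes again had a lower mean on the HF diet (48.4% of all probe sets), with a median log2 difference of -0.61, but no member passed the test in limma. No probe set of the whole array passed there (0% in either direction), and the smallest adjusted p among the members was 0.281. An unadjusted p under 0.05 was reached by 11 of 28 members against 17.7% of all probe sets. With array weights 21 members passed after adjustment, 17 lower and 4 higher, where 37.8% of all probe sets did. None of the enzymes separated the groups without overlap, against 0.712% of all probe sets that were lower without overlap.

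Averaged over pregnancy, the diet comparison called 9 of 28 members lower and none higher, against 1.11% of all probe sets called lower and 0.136% called higher. With an unadjusted p under 0.05 there were 20 of 28, against 29.6% of all probe sets. The 9 were the enzymes Tm7sf2, Lss, Nsdhl, Pmvk, Cyp51, Fdps, Sc5d and Dhcr7 and the sterol sensor Insig1. Of the 19 enzymes 16 had a negative difference (42.4% of all probe sets), and their median was -0.70 on the log2 scale, where that of all probe sets tested was 0.04. These 9 genes are shown mouse by mouse in the plot of members lower on the HF diet.

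**Figure D1:**
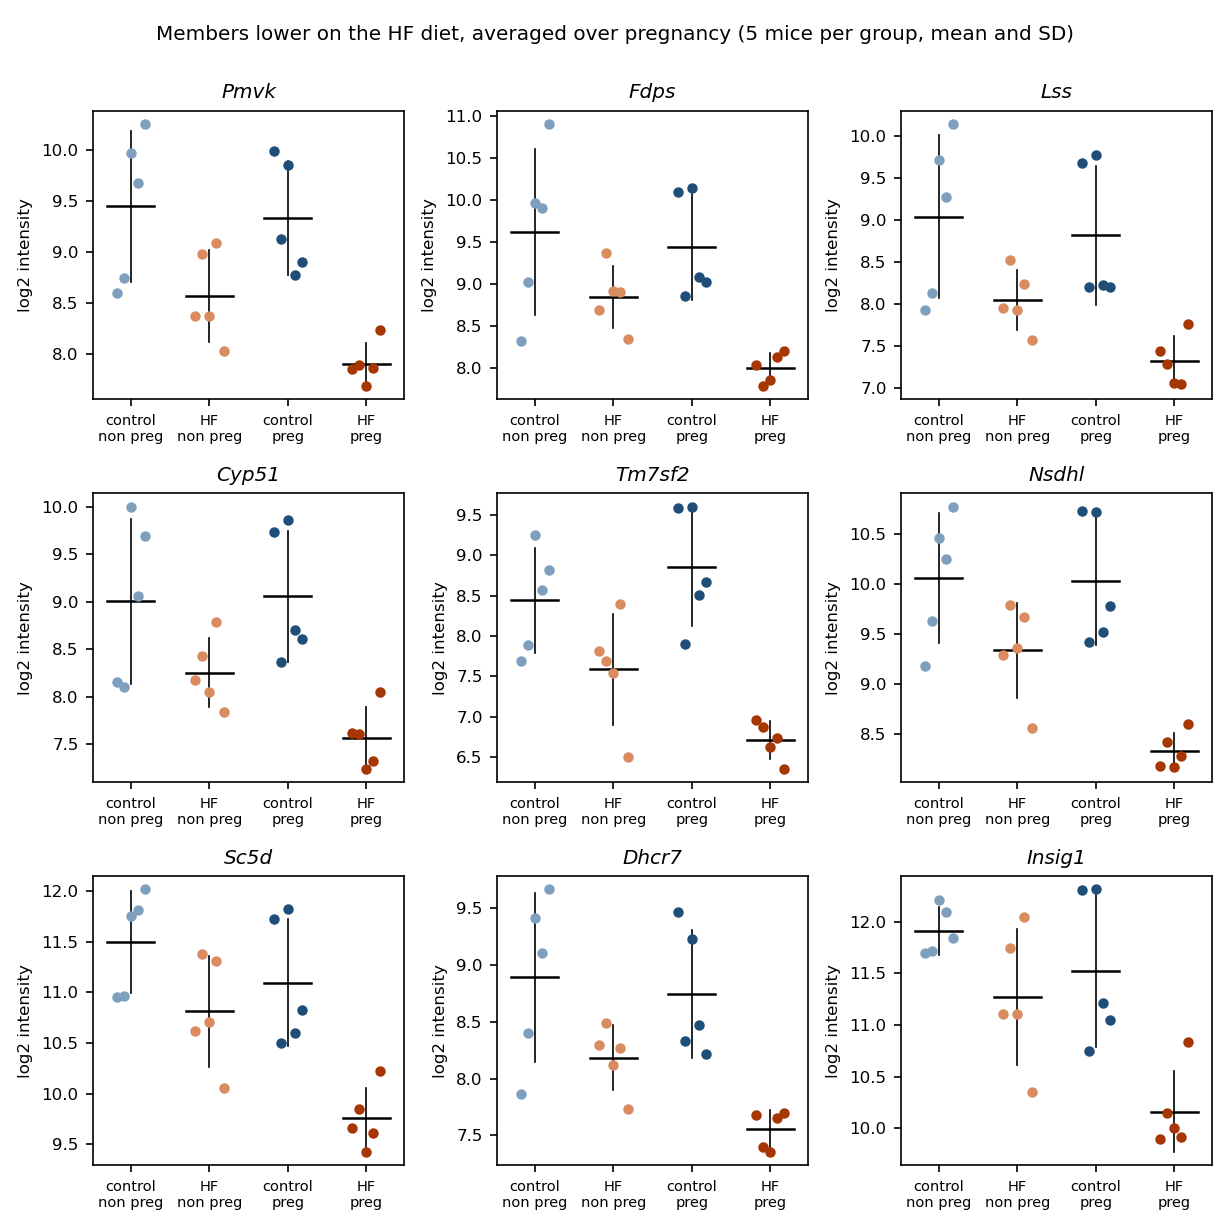
Log2 intensity (vertical axis, a separate scale in each panel) of the 9 members called lower on the HF diet averaged over pregnancy, 1 point per mouse, in the 4 groups on the horizontal axis, with the group mean as a bar and the SD as a line. The pregnant mice on the HF diet have the lowest mean in every panel, and in each panel except that of Insig1 they lie below all pregnant mice on the control diet.

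In pregnant mice 2 members were called, where 0.192% of all probe sets were. That count fell to 0 (at 0.0757% to 0.0909%) without mouse 1 or 3 of the control pregnant or mouse 3 or 5 of the HF pregnant group. It fell to 1 (0.111% to 0.126%) without control pregnant mouse 5 or any of mice 1, 2 and 4 of the HF pregnant group. It was 3 without mouse 2 of the control pregnant group (0.313%) or mouse 1 of the non pregnant controls (0.268%). The count of 9 for the averaged diet, where 1.24% of all probe sets were called, was 2 or 3 (at 0.207% to 0.454%) when any of these was left out: mice 3, 4 and 5 of the non pregnant controls, mice 1, 3 and 5 of the HF non pregnant group, mice 1 and 3 of the control pregnant group, and mice 1, 2, 3 and 4 of the HF pregnant group. It was 14 without non pregnant control mouse 1 (2.37% of all probe sets), 15 without mouse 4 of the HF non pregnant (5.83%) or of the control pregnant group (3.64%), and 19 without pregnant control mouse 2 (21.8%), so the share over all probe sets rose with it. It was 17 without the pair of arrays with the pancreatic signal (10.2%) and 0 without these and the pair with the liver signal (0.0101%), where the count in pregnant mice was 1, Tm7sf2 (0.0858%). Tm7sf2 passed in 31 of the 32 alternatives run for the averaged diet, and without the 4 arrays its difference was -1.66 with an adjusted p of 0.0543 in limma.

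Tm7sf2, which encodes a reductase that removes a double bond of the sterol ring after lanosterol, had the largest diet difference of the members. It read 9.59, 7.91, 9.60, 8.50 and 8.67 on the log2 scale in the 5 control pregnant mice, here and for other genes in the order of mice 1 to 5. In HF pregnant mice it read 6.96, 6.87, 6.62, 6.74 and 6.35. The highest HF pregnant mouse was thus below the lowest control pregnant mouse, and control pregnant mouse 2 was the nearest to the HF mice. The log2 difference was -2.15 (95% interval -2.91 to -1.38), or 4.43-fold lower, with an adjusted p of 0.0141 in limma. Non pregnant mice read 7.69, 7.89, 9.26, 8.57 and 8.81 on the control diet and 7.81, 7.69, 7.54, 8.39 and 6.497 on the HF diet, where the groups overlapped and the difference was -0.86 (interval -1.62 to -0.09, adjusted p 0.281). On 17 of the 20 arrays its intensity was above 100, so that the lowest values lie near the limit below which arrays give little order.

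Nsdhl, a dehydrogenase that takes part in stripping methyl groups from the sterol ring, was the other enzyme called in pregnant mice. It read 10.73, 9.42, 10.72, 9.51 and 9.78 in control pregnant mice. The HF pregnant mice read 8.18, 8.41, 8.16, 8.28 and 8.59, all under the control values. Mice 1 and 3 of the control pregnant group stood above the other 3. The log2 difference was -1.71 (interval -2.36 to -1.05), or 3.26-fold lower, with an adjusted p of 0.0260 in limma. The non pregnant mice read 9.18, 9.63, 10.46, 10.25 and 10.77 on the control diet and 9.29, 9.79, 9.36, 9.66 and 8.56 on the HF diet, with overlap and a difference of -0.73 (adjusted p 0.281).

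Lbr encodes another sterol reductase for the same step as Tm7sf2 and is also a protein of the inner nuclear membrane. In pregnant mice its mean log2 intensity was 10.12 ± 0.73 (SD, n = 5) on the control diet and 10.36 ± 0.32 on the HF diet, a difference of 0.24 (interval -0.38 to 0.86, adjusted p 0.698 in limma), and in non pregnant mice it was 10.03 ± 0.18 on the control and 10.57 ± 0.56 on the HF diet (difference 0.54, interval -0.08 to 1.16). The difference between these genes was not tested. Hmgcs1, the enzyme that makes HMG-CoA at the head of the mevalonate pathway, also had a positive difference, with 11.65 ± 0.22 on the control and 12.04 ± 0.45 on the HF diet in pregnant mice (difference 0.39, interval -0.09 to 0.88).

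The stretch of 150 bases before the start of these 4 genes is given here, since Tm7sf2 and Nsdhl fell while Lbr and Hmgcs1 had positive differences that did not pass. The sequences are those of RefSeq on GRCm38.p6, read 5′ to 3′ on the strand of the gene, and lie at chr19:6067851-6068000 (minus strand) for Tm7sf2, chrX:72918371-72918520 (plus) for Nsdhl, chr1:181842402-181842551 (minus) for Lbr and chr13:119690201-119690350 (plus) for Hmgcs1. Capitals mark CCAAT on either strand (read as ATTGG on the opposite one), the letters bound by NF-Y, a factor that works beside SREBP, and TCACNCCAC, the letters of a sterol regulatory element.
Tm7sf2: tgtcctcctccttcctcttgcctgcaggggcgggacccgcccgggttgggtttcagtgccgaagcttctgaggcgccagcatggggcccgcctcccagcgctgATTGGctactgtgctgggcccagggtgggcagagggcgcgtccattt
Nsdhl: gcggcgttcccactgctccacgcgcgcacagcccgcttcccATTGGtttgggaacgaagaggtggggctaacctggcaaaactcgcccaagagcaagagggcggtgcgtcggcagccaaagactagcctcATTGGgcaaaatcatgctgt
Lbr: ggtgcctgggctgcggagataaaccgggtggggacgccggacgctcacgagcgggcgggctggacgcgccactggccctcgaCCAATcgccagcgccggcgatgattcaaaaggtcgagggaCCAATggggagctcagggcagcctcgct
Hmgcs1: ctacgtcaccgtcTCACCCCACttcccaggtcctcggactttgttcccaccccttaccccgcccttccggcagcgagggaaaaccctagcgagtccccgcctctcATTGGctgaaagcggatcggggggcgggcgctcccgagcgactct

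In windows of 300 bases, from 250 before to 50 after a start, 16 of the 19 tested enzymes had an entry in the table of promoters. All 16 held CCAAT in at least 1 window (16 of their 19 windows), where 37.4% of all 32851 windows held it. TCACNCCAC, searched on both strands, was found for Hmgcs1 alone (1.24% of all windows), and the E-box CACGTG for 3 enzymes (7.15%). Hmgcs1, Lbr and Ggps1, the enzymes with a positive diet difference, held CCAAT too. These matches describe letters, and no motif was tested against the array values.

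Of the 8 enzymes before squalene, 7 were tested, and 2 fell on the HF diet averaged over pregnancy, Pmvk and Fdps. Phosphomevalonate kinase, Pmvk, read 9.99, 9.13, 9.85, 8.77 and 8.90 in pregnant mice on the control diet and 7.85, 7.89, 7.69, 7.87 and 8.24 in those on the HF diet, with no overlap. Without pregnancy its values were 8.60, 8.74, 9.97, 9.68 and 10.26 on the control and 8.37, 8.98, 8.37, 9.09 and 8.03 on the HF diet. Of the non pregnant controls, mice 1 and 2 lay inside the range of the HF mice and the other 3 above it. The diet difference averaged over pregnancy was -1.15 ± 0.22 (SE), or 2.22-fold lower (adjusted p 0.0232 in limma), made up of -1.42 in pregnant and -0.88 in non pregnant mice.

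Fdps joins isoprene units into farnesyl diphosphate, from which squalene is made. The 5 control pregnant mice read 10.09, 8.86, 10.15, 9.08 and 9.03 and the HF pregnant mice 8.04, 7.79, 7.86, 8.14 and 8.21. The non pregnant mice read 8.32, 9.02, 9.96, 9.90 and 10.91 on the control diet and 8.69, 9.37, 8.91, 8.91 and 8.35 on the HF diet. Groups overlapped only where the mice were not pregnant, and the averaged difference was -1.11 ± 0.26 (SE, adjusted p 0.0465 in limma). It was the weakest of the 9 calls and passed in 15 of the 32 alternatives.

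Mvd, the decarboxylase that yields the first isoprene unit, did not pass. Its log2 intensities were 8.38, 7.09, 8.57, 7.23 and 6.75 on the control diet and 6.57, 6.497, 6.38, 6.47 and 6.34 on the HF diet at E18.5, with no overlap. Without pregnancy they were 6.55, 6.88, 8.39, 7.98 and 8.33 on the control diet and 6.93, 7.03, 6.77, 7.52 and 6.85 on the HF diet, with overlap. All 5 pregnant mice on the HF diet had an intensity under 100, as did mouse 1 of the non pregnant controls. The averaged difference was -0.88 ± 0.26 (SE, adjusted p 0.0754 in limma). Among the rest, the isomerase Idi1 differed by -0.61 (adjusted p 0.0950), mevalonate kinase, Mvk, by -0.29 (0.103), Hmgcs1 by 0.30 (0.210) and Ggps1, which leads off to geranylgeranyl diphosphate rather than to sterols, by 0.04 (0.627).

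All 12 enzymes from squalene on were tested, and 6 of them fell on the HF diet averaged over pregnancy. Tm7sf2 differed by -1.50 ± 0.26 (SE, adjusted p 0.0153 in limma) and Nsdhl by -1.22 ± 0.22 (0.0172). Lanosterol synthase, Lss, which closes the sterol ring, differed by -1.25 ± 0.29 (0.0403), and Cyp51, which removes a methyl group from lanosterol, by -1.12 ± 0.26 (0.0403). Dhcr7, the last reductase of a branch that ends in cholesterol, differed by -0.95 ± 0.21 (0.0365). For Lss, Cyp51 and Dhcr7 the HF pregnant mice lay below every control pregnant mouse, from 7.05 to 7.76 against 8.19 to 9.77 for Lss, from 7.24 to 8.06 against 8.37 to 9.86 for Cyp51 and from 7.36 to 7.70 against 8.22 to 9.46 for Dhcr7.

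Sc5d, a desaturase late in the chain, read 11.72, 10.50, 11.82, 10.60 and 10.83 in pregnant mice on the control diet and 9.66, 9.85, 9.43, 9.61 and 10.22 on the HF diet. In the non pregnant groups it read 10.95, 10.96, 11.75, 11.81 and 12.02 on the control diet and 10.62, 11.38, 10.71, 11.31 and 10.05 on the HF diet. Only the pregnant groups were apart, and HF non pregnant mice 2 and 4 reached into the control range. The averaged difference was -1.01 ± 0.22 (SE), or 2.02-fold lower (adjusted p 0.0318 in limma).

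Squalene epoxidase, Sqle, at -0.54 (adjusted p 0.0565), the methylsterol oxidase Msmo1 at -0.41 (0.0565) and squalene synthase, Fdft1, at -0.70 (0.0566) lay just outside the threshold in limma. Ebp, a sterol isomerase, differed by -0.25 (0.0822), the ketosteroid reductase Hsd17b7 by -0.45 (0.120) and Lbr by 0.39 (0.204). Lbr was the only enzyme of these 12 with a positive difference.

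**Figure D2:**
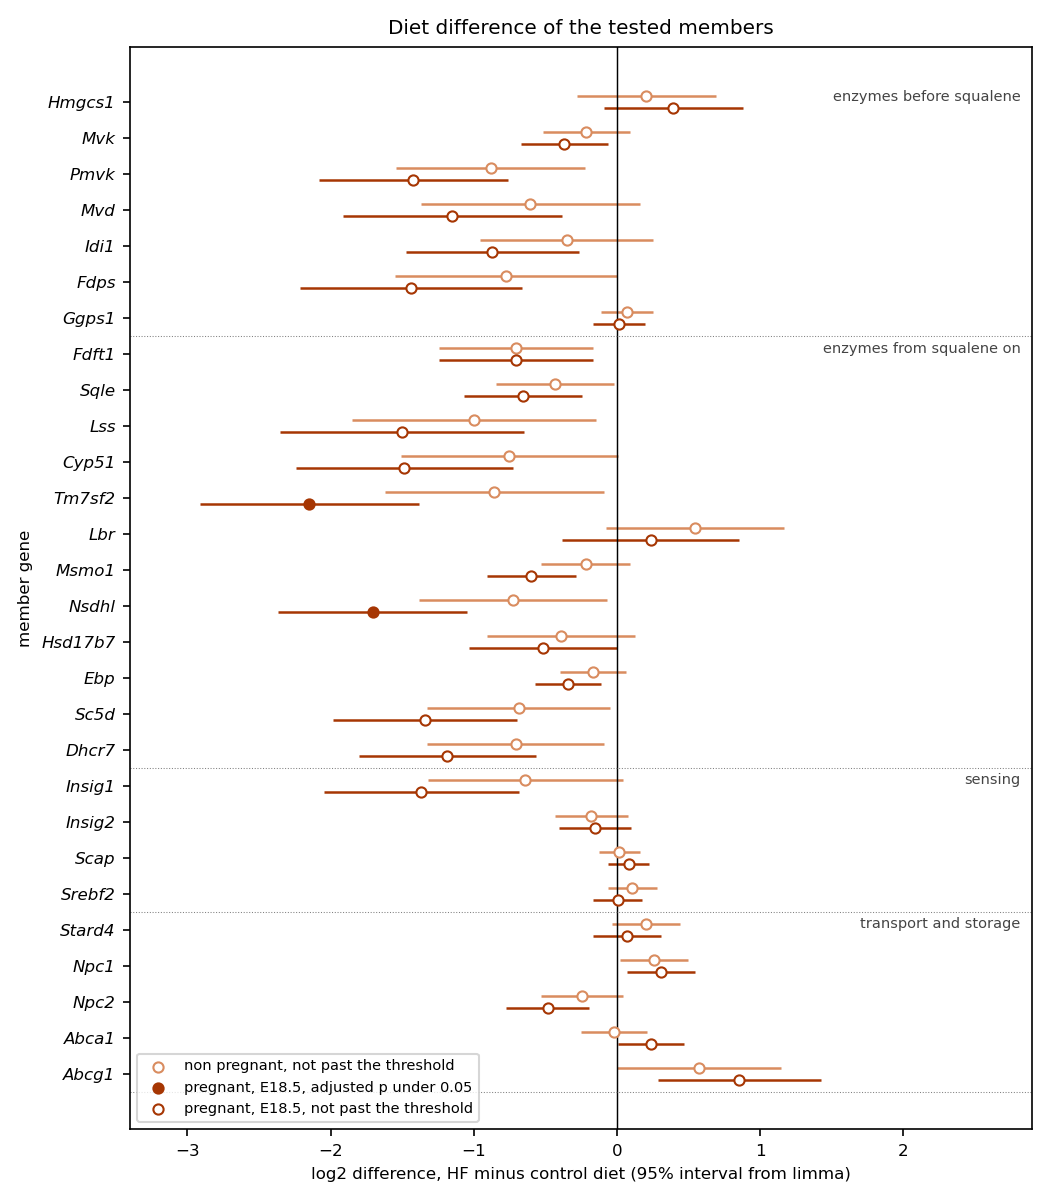
Log2 difference between the HF and the control diet (horizontal axis, HF minus control, with its 95% interval from limma) for the 28 tested members (vertical axis, in order of role), in non pregnant mice (light) and in pregnant mice at E18.5 (dark). Filled points have an adjusted p under 0.05, which holds for Tm7sf2 at -2.15 and Nsdhl at -1.71 in pregnant mice, and 16 of the 19 enzymes lie left of zero in both.

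Several genes had further probe sets. The other kept probe set of Lss differed by -1.43 (adjusted p 0.0172 in limma, diet averaged over pregnancy) and that of Sc5d by -1.11 (0.0249), so both pairs were called. For Cyp51 the other kept probe set differed by -0.87 (0.0682) and was not called, and for Fdft1 it differed by -0.70 (0.0485) and was called where the brighter one was not. All 4 kept probe sets of Hmgcs1 had a positive difference, from 0.30 to 0.38. The probe sets used for Hmgcs1, Fdft1 and Hsd17b7 end in _x_at and those of Lss and Mvd in _s_at, by which the manufacturer marks probes that can also bind other transcripts.

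Of the 4 sensing genes, Insig1 fell with the enzymes and the other 3 did not pass. Insig1 is itself a target of SREBP2, and its protein keeps Scap in the endoplasmic reticulum when sterols are plentiful. Control pregnant mice read 12.31, 10.75, 12.31, 11.21 and 11.05, and HF pregnant mice 9.90, 10.15, 10.01, 9.91 and 10.84. HF pregnant mouse 5 read above control pregnant mouse 2, so these groups overlapped by that 1 pair. Non pregnant mice read 11.70, 11.72, 12.21, 12.10 and 11.84 on the control diet and 11.10, 11.74, 11.11, 12.05 and 10.35 on the HF diet. The averaged diet difference was -1.003 ± 0.23 (SE), or 2.005-fold lower (adjusted p 0.0403 in limma), with -1.37 in pregnant and -0.64 in non pregnant mice.

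Insig2, the other retention protein, was not called. It read 9.43, 8.95, 9.44, 8.95 and 9.14 at E18.5 on the control diet and 8.94, 9.12, 9.02, 8.92 and 9.15 on the HF diet. Without pregnancy it read 9.19, 9.29, 9.35, 9.24 and 9.40 on the control diet and 8.97, 9.50, 9.14, 9.18 and 8.80 on the HF diet. Both pairs of diets overlapped, and the averaged difference was -0.17 (interval -0.34 to 0.01, adjusted p 0.193 in limma).

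Srebf2, which encodes SREBP2, read 7.52, 7.77, 7.48, 7.71 and 7.55 in pregnant mice on the control diet and 7.70, 7.56, 7.63, 7.75 and 7.42 in those on the HF diet. The non pregnant mice read 7.60, 7.49, 7.48, 7.56 and 7.70 on the control diet and 7.73, 7.57, 7.54, 7.70 and 7.82 on the HF diet. All 4 groups overlapped, and the averaged difference was 0.06 (interval -0.06 to 0.18, adjusted p 0.504 in limma). Srebf2 also had a dimmer kept probe set, which differed by 0.38 averaged over pregnancy (adjusted p 0.146 in limma). In pregnant mice that probe set differed by 0.13 (0.781), so Srebf2 was not called by either. Its partner Scap read 8.74, 8.95, 8.66, 8.87 and 8.69 at E18.5 on the control diet and 8.79, 8.91, 8.89, 8.89 and 8.85 on the HF diet, and without pregnancy 8.74, 8.90, 8.87, 8.83 and 8.78 on the control diet and 8.91, 8.72, 8.77, 8.85 and 8.96 on the HF diet. These groups overlapped as well, with an averaged difference of 0.05 (interval -0.05 to 0.15, adjusted p 0.463). The array measures the mRNA of Srebf2 and not the cutting of its protein.

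None of the 5 transport genes tested passed in any comparison. Abcg1, a pump that passes cholesterol to high density lipoprotein, read 8.55, 10.10, 8.43, 10.01 and 9.10 in pregnant mice on the control diet and 9.74, 10.16, 10.19, 10.35 and 10.03 on the HF diet. In non pregnant mice it read 9.02, 9.56, 9.06, 8.92 and 9.44 on the control diet and 10.04, 9.70, 9.61, 9.47 and 10.06 on the HF diet. In the control pregnant group mice 2 and 4 were as high as the HF mice, while mice 1 and 3 were the lowest of all 20. The averaged difference was 0.72 (interval 0.31 to 1.12), with an adjusted p of 0.0640 in limma.

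Npc2 and Npc1 encode the soluble and the membrane protein that hand cholesterol out of the lysosome, and their differences had opposite signs. Npc2 read 13.72, 12.95, 13.61, 13.08 and 13.39 at E18.5 on the control diet and 12.76, 13.02, 12.75, 12.81 and 12.99 on the HF diet, where mouse 2 of the control group read below the highest HF mouse. Without pregnancy it read 13.04, 13.26, 13.45, 13.31 and 13.30 on the control diet and 13.17, 13.23, 12.97, 13.08 and 12.70 on the HF diet. Npc1 read 7.86, 8.40, 7.97, 8.29 and 8.01 at E18.5 on the control diet and 8.10, 8.38, 8.73, 8.40 and 8.45 on the HF diet. The non pregnant mice read 8.22, 8.005, 7.97, 7.93 and 8.23 on the control diet and 8.36, 8.29, 8.29, 8.34 and 8.36 on the HF diet. The averaged difference was -0.36 for Npc2 (adjusted p 0.0612 in limma) and 0.28 for Npc1 (0.0698). Npc1 was the only member whose non pregnant groups did not overlap, all 5 HF mice being higher, as were 1.47% of all probe sets.

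Abca1, a pump that loads cholesterol onto apolipoprotein A-I, read 12.28, 12.04, 12.41, 12.08 and 12.17 at E18.5 on the control diet and 12.23, 12.48, 12.49, 12.20 and 12.75 on the HF diet. Without pregnancy it read 12.41, 12.08, 12.22, 12.002 and 12.03 on the control diet and 12.10, 12.18, 12.06, 12.29 and 12.01 on the HF diet. The HF pregnant mice were highest on average but overlapped every other group (averaged difference 0.11, adjusted p 0.326 in limma). Stard4, a carrier of cholesterol between membranes, differed by 0.14 (0.241). The averaged difference of Abca1 was -0.04 when its kept probe sets were averaged.

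**Figure D3:**
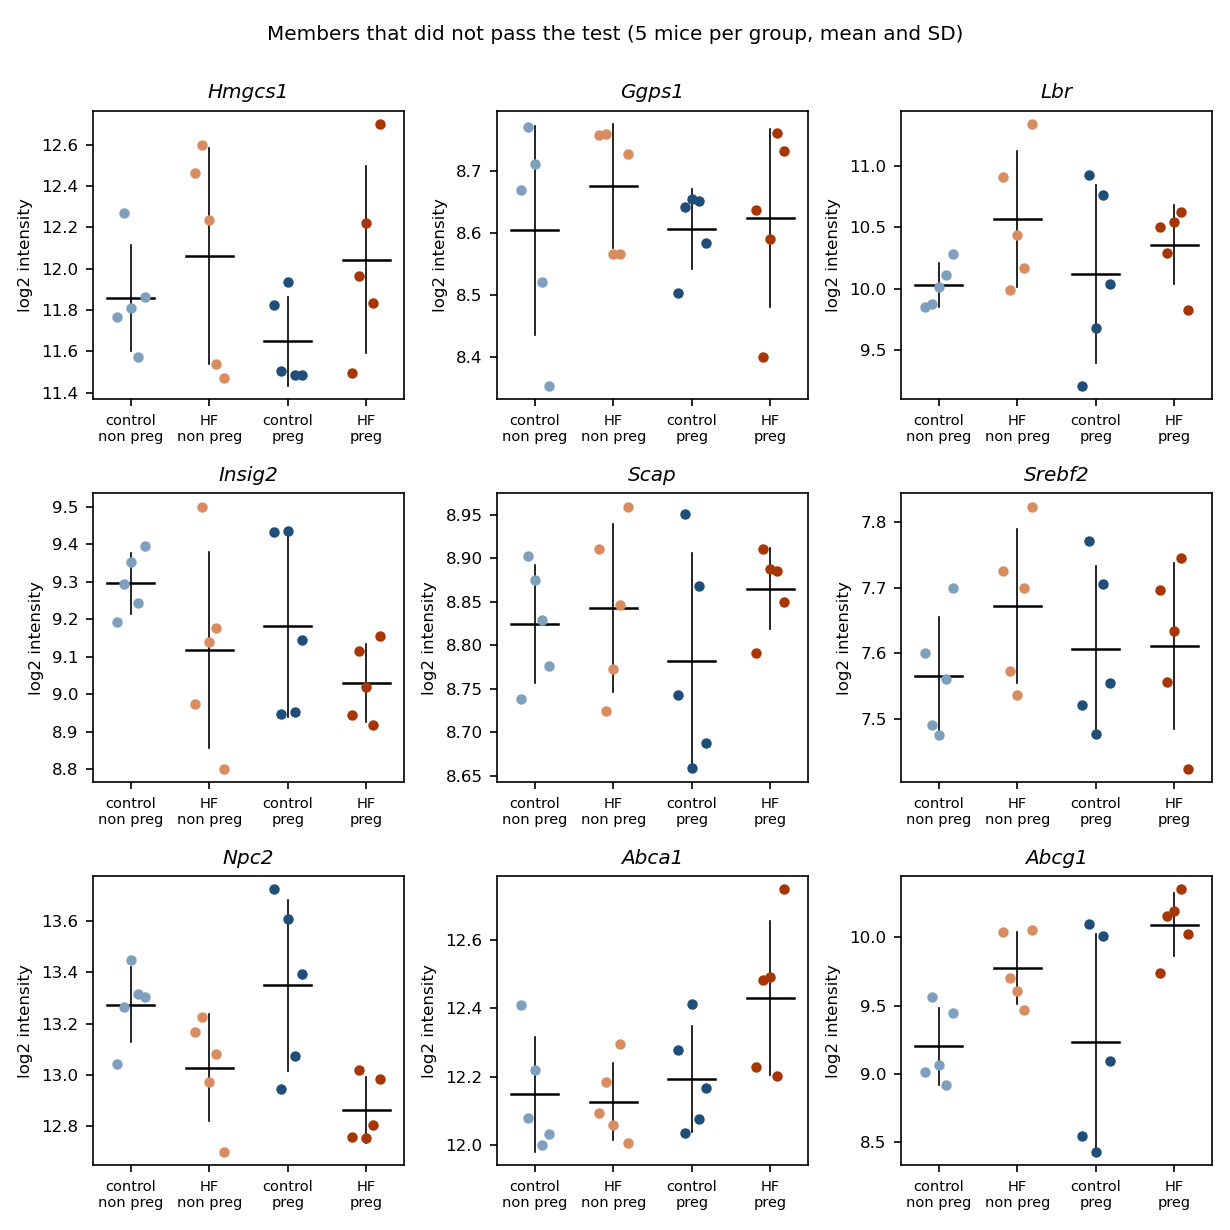
Log2 intensity (vertical axis, a separate scale in each panel) of 9 members that did not pass the test, 1 point per mouse, in the 4 groups on the horizontal axis, with the group mean as a bar and the SD as a line. In every panel the diets overlap among pregnant and among non pregnant mice, and the pregnant controls divide widely for Abcg1, where mice 1 and 3 read 8.55 and 8.43 and mice 2 and 4 read 10.10 and 10.01.

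Pregnancy on the HF diet went with lower values of all 19 enzymes, yet none was called. The median log2 difference, pregnant minus non pregnant, was -0.57 for the enzymes and -0.01 for all probe sets tested, of which 53.6% were negative. No member passed in limma, against 0.0101% of probe sets called lower and 0.0151% called higher, and 11 of 28 members had an unadjusted p under 0.05, against 4.66%. Mvd, Idi1, Fdps, Sqle and Dhcr7 were lower without overlap, 5 of 19 enzymes where 0.889% of all probe sets were. The largest differences were -1.11 for Insig1, -1.06 for Sc5d and -1.01 for Nsdhl. With array weights 14 members passed after adjustment, 12 lower and 2 higher, where 13.5% of all probe sets did.

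On the control diet pregnancy left no member past the test or past an unadjusted p of 0.05, where 2.9% of all probe sets reached the latter and 0% the former. The median over the enzymes was -0.12, 14 of 19 were negative (49.6% of all probe sets), and the differences ran from -0.45 for Fdft1 to 0.41 for Tm7sf2, with a smallest adjusted p of 0.963 in limma. Averaged over diet, pregnancy again called none of the 28 members (0% of probe sets lower and 0.0101% higher), with 7 of 28 under an unadjusted p of 0.05 against 4.59%. With array weights 11 members passed after adjustment, all lower, where 8.62% of all probe sets did.

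The difference between the diet effects in pregnant and non pregnant mice, the interaction term, was not called in limma for any member or for any probe set (0%). It was negative for 18 of the 19 enzymes, with a median of -0.48 on the log2 scale where 52.3% of all probe sets were negative. Tm7sf2 at -1.29 and Nsdhl at -0.98 had an unadjusted p under 0.05, 2 of 28 members against 3.08%, and the smallest adjusted p of a member was 0.933. A diet difference that was larger in pregnant mice was thus not called for any enzyme.

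The enzymes also varied together among mice of the same group. Over the 20 arrays, with each value taken as its deviation from the group mean, the 171 pairs of tested enzymes had a median Pearson r of 0.77 and a median Spearman rho of 0.77, and 137 pairs were positive. The arrays share their group means and their normalization, and the values are given as a description. Lss (median r of 0.88 with the other enzymes), Dhcr7 (0.87) and Nsdhl (0.86) were closest to the rest. Hmgcs1 (0.20), Ggps1 (-0.33) and Lbr (-0.48) stood apart, which are the 3 enzymes with a positive diet difference. Outside the enzymes, Npc2 (0.70), Insig1 (0.70) and Insig2 (0.65) varied with the enzymes, and Abcg1 (-0.49), Scap (-0.38), Npc1 (-0.37) and Srebf2 (-0.34) against them. Leaving out the pair of arrays with the pancreatic signal gave a median of 0.77 for the enzyme pairs.

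**Figure D4:**
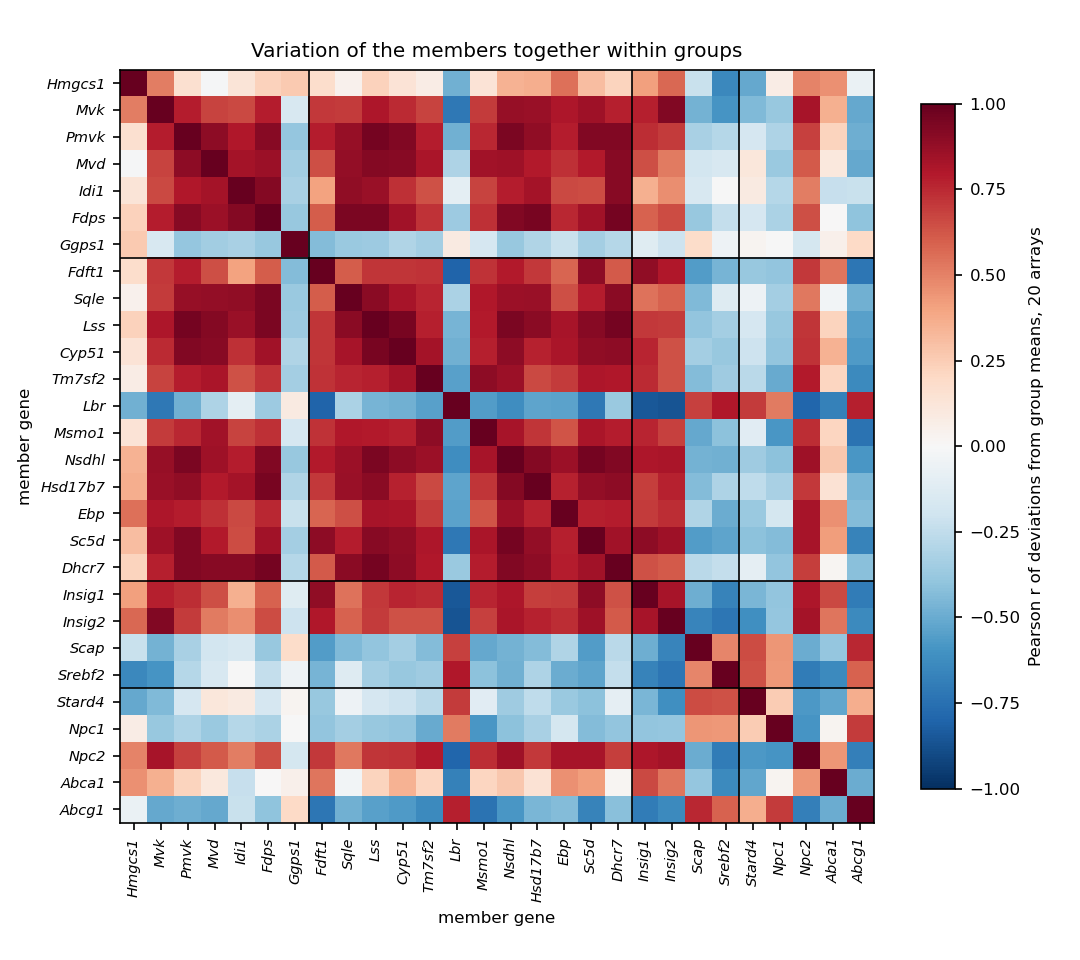
Pearson r (colour, from -1 in blue to 1 in red) between the 28 tested members (both axes, in order of role, with lines between roles) over 20 arrays, each value taken as its deviation from the mean of its group. The enzymes form a red block apart from the stripes of Hmgcs1, Ggps1 and Lbr, whose median r with the other enzymes is 0.20, -0.33 and -0.48.

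The enzymes were high in some control mice and not in others. Taking the mean deviation of the 19 enzymes from their overall means on the log2 scale, control non pregnant mice 3, 4 and 5 lay at 0.73, 0.51 and 0.92 and mice 1 and 2 at -0.23 and 0.02. Control pregnant mice 1 and 3 lay at 0.72 and 0.78, and the other 3 between -0.0579 and -0.000699. HF non pregnant mice lay between -0.44 and 0.21 and HF pregnant mice between -0.70 and -0.48. The mean of the 6 adipocyte markers was 12.76 and 12.61 in control pregnant mice 1 and 3 and 11.48, 11.69 and 12.17 in mice 2, 4 and 5. It was lowest of all arrays, at 11.27, in HF non pregnant mouse 5, which was also lowest of its group for the enzymes. In the non pregnant controls it ran from 12.15 to 12.45 with no such split, and in HF pregnant mice from 11.54 to 12.53. Brown fat markers did split, at 7.31 to 7.83 in control non pregnant mice 3, 4 and 5. They read 6.83 and 6.55 in mice 1 and 2. In control pregnant mice 1 and 3 they read 7.59 and 7.21, against 6.41 to 6.83 in the others. B cell markers read 7.997 to 9.33 in control non pregnant mice 3, 4 and 5, and 6.23 and 6.56 in mice 1 and 2. In control pregnant mice 1 and 3 they were instead lowest, at 5.43 and 7.19, and T cell markers split likewise in both groups. The part of these markers in the enzyme values was not tested. The HF pregnant mice were also the most alike, with a median SD over the enzymes of 0.18 against 0.56 in the pregnant controls, and of 0.36 on the HF and 0.52 on the control diet without pregnancy. They had the lowest SD of the 4 groups for 15 of 19 enzymes, where they had it for 43.9% of all probe sets tested.

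Fatty acid synthesis, a pathway under the related factor SREBP1, was set beside the sterol enzymes. Srebf1, which encodes that factor, was tested among the further cholesterol genes described below and was not called. The list of fatty acid synthesis genes was chosen with earlier results of these data known. It holds Fasn, Me1 and Scd1, which the paper reports as lower with HF feeding in visceral fat, so its counts are a description. All 16 genes of that list had a negative averaged diet difference, where 42.4% of all probe sets did. In limma 8 were called lower and none higher, against 1.11% of all probe sets called lower and 0.136% called higher. In pregnant mice 5 were called lower, against 0.177% of all probe sets. The median averaged difference of the 16 genes was -1.14, against 0.04 over all probe sets tested. The same mice were low, with mean log2 intensities of 11.36 and 11.41 in control non pregnant mice 1 and 2 against 12.27 to 12.45 in the other 3, and of 11.47 to 11.66 in mice 2, 4 and 5 of the pregnant controls against 12.43 and 12.48 in mice 3 and 1. HF pregnant mice ranged from 10.10 to 10.81.

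A list of 40 further cholesterol genes covered regulators, uptake, efflux, esters and oxysterols, and 33 were tested. Apoe, the apolipoprotein that carries cholesterol between cells, was the only one called and was higher on the HF diet, by 1.13 in pregnant mice (interval 0.69 to 1.58, adjusted p 0.0299 in limma, no overlap) and by 0.77 averaged over pregnancy (adjusted p 0.0233). In pregnant mice its mean log2 intensity was 12.17 ± 0.48 (SD, n = 5) on the control and 13.30 ± 0.33 on the HF diet, and without pregnancy 12.43 ± 0.31 and 12.83 ± 0.22. Of all probe sets 0.0151% were called higher in pregnant mice and 0.136% averaged over pregnancy. In pregnant mice 1.56% were higher without overlap. The median averaged difference of the 33 genes was 0.02, and 18 were positive, where 42.4% of all probe sets were negative. Their averaged differences ran from -1.14 to 0.77. In pregnant mice they ran from -1.29 to 1.13, and 1 gene was lower without overlap, where 1.95% of all probe sets were.

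Markers of other cells in the tissue had the following levels beside these results. The 4 measured B cell markers of 5 listed had mean log2 intensities per array of 6.23 to 9.33 on the control and 7.89 to 11.08 on the HF diet without pregnancy, and of 5.43 to 10.27 on the control and 6.64 to 9.86 on the HF diet at E18.5. The 4 measured T cell markers of 5 had group means of 7.70, 8.90, 8.23 and 8.53 in the same order. The highest B cell marker levels were those of HF non pregnant mice 5 and 1 and control pregnant mice 2 and 4 (11.08, 10.29, 10.27 and 9.89). The same 4 mice had the highest Lbr, at 11.35, 10.91, 10.93 and 10.77, and control pregnant mice 1 and 3, with B cell levels of 5.43 and 7.19, had the lowest, at 9.20 and 9.68. Lbr was not alone in this. Stard4 was also highest in HF non pregnant mouse 5 and control pregnant mouse 2, at 8.63 and 8.48, and so was Srebf2, at 7.82 and 7.77. For both genes an HF pregnant mouse came next. None of the B cell and T cell markers was called between groups, and their part in the results was not tested. Of the 10 macrophage markers 9 were tested, with group means of 9.16 and 9.28 without pregnancy and 9.14 and 9.42 at E18.5, control diet first. All 9 had a positive difference in pregnant mice, where 40% of all probe sets had a negative one. None was called, and 1 of the 9 had an unadjusted p under 0.05 in limma, against 12.8% of all probe sets. The 6 brown fat markers had group means of 7.21 and 6.43 without pregnancy and 6.97 and 6.25 at E18.5, control diet first. Of these markers 3 were tested, and all 3 were lower on the HF diet averaged over pregnancy. Each had an unadjusted p under 0.05 in limma, where 13.5% of all probe sets were lower at that level. Cidea alone was called and fell by 2.03 (adjusted p 0.0249 in limma), where 1.11% of all probe sets were called lower. Ucp1, which defines brown fat, was under 100 in the mean of every group.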

How the data were processed

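Total RNA from visceral fat was measured on Affymetrix Mouse Genome 430 2.0 arrays, 1 per mouse. Methods and labels call the tissue visceral fat, and a figure legend calls it mesenteric. They differ on the extraction (Qiagen columns or Trizol) and give no scan date or batch. Per the labels and methods, the authors used affy under R 2.8.0 and its RMA procedure, and the deposited intensity values are linear. Their log2 was analysed as deposited. RMA tends to compress large changes and gives dim probe sets little range.

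The 64 control probe sets were excluded, and a probe set was tested if its intensity was over 100 on 5 or more arrays (19802 of 45101). Titles gave diet and pregnancy, hence the groups. Limma 3.58.1 (R 4.3.3) estimated the 4 group means, from which 7 comparisons were taken, and Benjamini-Hochberg adjustment ran over the 19802 tests. An adjusted p under 0.05 counted as called. Only the 5 mice of a group replicate it, and their number limits the precision. No pair of arrays was identical. The fit was tested on simulated data with independent noise in each probe set and array. Such data lack the shared variation and the outlying arrays seen here, so the simulation does not cover their part in the counts.

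Members and lists were chosen with earlier results of these data known. Values of every mouse are given for members called between a pair of groups, for the 3 of smallest p per role in the averaged diet comparison, and for Insig1, Insig2, Srebf2, Abca1 and Abcg1. Other members named with sequences were chosen after their values were seen. The promoter table (RefSeq, GRCm38.p6) had no entry for Fdps, Fdft1, Sqle, Stard4, Npc1 and Abcg1. Markers of endothelium, smooth muscle, mesothelium, liver and intestinal epithelium were read as well, and none was called in any comparison. Alternatives changed the filter, control probe sets, moderation, array weights, fitted groups, centring, quantile normalization, a floor at 100, probe set averaging, a replicate block, the call rule and the arrays left out. Leaving out both arrays with a pancreatic signal, or these and both with a liver signal, was added after seeing the data. Same-numbered mice were not treated as pairs, because deviations in the 30 such pairs of arrays correlated with a median r of -0.16 (-0.75 to 0.67).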

Additional observations from a re-analysis of the deposited data

Results flagged for a closer look

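Insig1 in HF pregnant mouse 5, at 10.84 on the log2 scale, lay far from the other 4 mice of its group, which read from 9.90 to 10.15. The gap to the nearest mouse was 0.737 of the whole range of the group, above Dixon's critical value of 0.71 for 5 samples. It was the only such value among 112 groups of members tested, where chance alone gives about 1 in 20, and its cause was not tested. Without that mouse the averaged diet difference of Insig1 was -1.09 (adjusted p 0.0302 in limma) in place of -1.003.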

How the results depend on the processing

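Without a filter on low values, 1 member (Tm7sf2) was called in pregnant mice and 3 (Pmvk, Tm7sf2 and Nsdhl) for the averaged diet. That fit called 0.0555% and 0.249% of all probe sets in the same order. Array weights gave 13 for the diet in pregnant and 21 in non pregnant mice, 24 for the averaged diet, 14 for pregnancy on the HF diet and 11 for averaged pregnancy, in fits that called 6.89%, 37.8%, 46.1%, 13.5% and 8.62% of all probe sets. Calling by a 1.5-fold change and an unadjusted p under 0.05 gave 15, 8, 13, 8 and 2 in the same order, and 2 for the interaction, where 2.83%, 3.91%, 3.17%, 1.27%, 0.53% and 0.894% of all probe sets passed. With the replicate number as a block, Tm7sf2 alone was called, 1 member in pregnant mice (adjusted p 0.0439 in limma) and 1 for the averaged diet (0.0430), and the block changed no other call than those lost there. The fit with the block called 0.0858% and 0.0959% of all probe sets. Leaving out 1 mouse at a time gave 0 to 3 members in pregnant mice (0.0757% to 0.313% of all probe sets). It gave 2 to 19 for the averaged diet (0.207% to 21.8% of all probe sets), and 0 in the other comparisons. Without the arrays with a pancreatic signal 17 members were called for the averaged diet, 15 lower and 2 higher (Npc1 at 0.30 and Abcg1 at 0.79), in a fit that called 10.2% of all probe sets. Without these and the arrays with a liver signal 0 were called for the averaged diet and 1 (Tm7sf2) in pregnant mice. That fit called 0.0101% and 0.0858% of all probe sets. Across 32 alternatives of the averaged diet, Tm7sf2 passed in 31, Nsdhl in 30, Pmvk in 23, Lss, Cyp51, Sc5d, Dhcr7 and Insig1 in 17 each and Fdps in 15. In pregnant mice Tm7sf2 passed in 29 of 33 (adjusted p up to 0.0690) and Nsdhl in 22 (up to 0.121).

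Reversals of sign concerned values near 0 that were not called. In pregnant mice the diet difference of Ggps1 was -0.011 with centred arrays and -0.017 to 0.073 with 1 mouse left out, that of Srebf2 was -0.023 with centred arrays, -0.033 after repeated quantile normalization and -0.028 to 0.052 with 1 mouse left out, and that of Stard4 was -0.011 to 0.15 with 1 mouse left out. Abca1 averaged over pregnancy was -0.037 with the mean of its probe sets. The median of the enzymes between the control groups ran from -0.29 to 0.054 with 1 mouse left out. The causes were not tested. Tm7sf2, Mvk and Mvd were above 100 on 17, 17 and 14 of 20 arrays, so their lowest values are the least certain.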
